A study of Mus musculus with 2 samples.

Results

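The forkhead genes were examined in DNA methylation data from the epiblast of mouse embryos. They are 39 genes named Foxa1 to Foxs1, chosen by name, out of 20661 autosomal protein-coding genes in the gene table, and all 39 lie on autosomes. The epiblast, the layer of the early embryo that forms the fetus, came from wild-type female (XX) C57Bl6/J embryos at embryonic day 6.5, from natural matings without culture, and was dissected away from the extraembryonic tissue, on which sex was typed by PCR. The labels list 2 samples, whereas the read counts stand in a single pooled table. Replicate error therefore cannot be given, no p-value was computed, and there is no condition to compare with. DNA had been treated with bisulfite, which leaves methylated cytosine unchanged and turns unmethylated cytosine into a base read as thymine, and a level here is the share of read counts at CpG sites that were methylated. Expression was not measured, so the tissue label could not be checked against marker genes. A mixed or shifted cell population and a change within each cell cannot be told apart in bulk tissue.

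Forkhead proteins are transcription factors that bind DNA through a winged-helix domain and are grouped into lettered subfamilies. Most act in particular organs or germ layers. Several, such as Foxa2 in the node and anterior streak and Foxd3 in the pluripotent epiblast, are needed around gastrulation. Others, among them the Foxk and most Foxo and Foxp genes, are expressed in many tissues. In mammals the promoters of developmental regulators often lie in wide stretches of unmethylated, CpG-rich DNA, whereas the transcribed bodies of broadly expressed genes are usually methylated. For the values below, 28 members were classed as developmental, meaning restricted to particular tissues, and 11 as ubiquitous, namely Foxj2, Foxj3, Foxk1, Foxk2, Foxm1, Foxn2, Foxn3, Foxo1, Foxo3, Foxp1 and Foxp4.

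A promoter is the stretch of 500 bp on either side of the gene's start. The start was the most upstream one in a RefSeq promoter table (GRCm38.p6, the assembly of mm10) for 26 members. For the others, Foxb1, Foxc2, Foxe1, Foxf1, Foxj1, Foxk1, Foxl1, Foxm1, Foxn2, Foxo6, Foxp2, Foxq1 and Foxs1, it was the end of the gene with more CpGs. That rule lay within 500 bp of the annotated start in 21 of the 26 members that have one, and in 76.3% of 14532 genes. Ranges in parentheses give the 95% confidence interval of a share by the exact Clopper-Pearson method. These intervals reflect counting error alone and can be too narrow, since neighbouring CpGs are often covered by the same read. The autosomes held 133245671 read counts, a median of 6 per CpG, and were methylated at 66.3%. The members' promoters held 70 to 2873 read counts each.

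The sequences just before the start show how unlike the members are in the CpGs that can carry methylation. Given here, from RefSeq GRCm38.p6, are the 250 bases before the start of the least methylated promoter (Foxa1), the most methylated promoter (Foxn1), the members of the Foxi subfamily, which run from unmethylated to methylated, and Foxr1, picked after its values were seen because it was intermediate. Each is written 5′ to 3′ on the strand of the gene, with CpGs in capitals.
Foxa1: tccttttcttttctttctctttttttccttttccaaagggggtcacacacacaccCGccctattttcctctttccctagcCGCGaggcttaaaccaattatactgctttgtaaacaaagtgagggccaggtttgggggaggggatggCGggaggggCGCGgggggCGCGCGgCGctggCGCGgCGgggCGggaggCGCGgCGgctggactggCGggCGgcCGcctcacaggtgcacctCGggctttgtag
Foxi3: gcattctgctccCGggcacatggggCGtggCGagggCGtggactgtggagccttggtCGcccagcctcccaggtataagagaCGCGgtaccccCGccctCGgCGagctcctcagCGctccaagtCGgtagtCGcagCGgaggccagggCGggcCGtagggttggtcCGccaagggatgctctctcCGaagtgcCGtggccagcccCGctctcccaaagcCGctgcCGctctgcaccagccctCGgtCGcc
Foxi2: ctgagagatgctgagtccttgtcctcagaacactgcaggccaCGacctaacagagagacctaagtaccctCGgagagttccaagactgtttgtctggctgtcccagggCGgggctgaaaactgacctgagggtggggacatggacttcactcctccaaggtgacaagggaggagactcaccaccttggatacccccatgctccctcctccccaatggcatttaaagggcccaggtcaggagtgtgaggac
Foxi1: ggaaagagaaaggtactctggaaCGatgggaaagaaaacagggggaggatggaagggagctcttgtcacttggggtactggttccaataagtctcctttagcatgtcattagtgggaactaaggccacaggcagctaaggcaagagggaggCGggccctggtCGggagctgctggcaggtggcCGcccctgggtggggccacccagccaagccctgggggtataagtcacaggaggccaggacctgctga
Foxr1: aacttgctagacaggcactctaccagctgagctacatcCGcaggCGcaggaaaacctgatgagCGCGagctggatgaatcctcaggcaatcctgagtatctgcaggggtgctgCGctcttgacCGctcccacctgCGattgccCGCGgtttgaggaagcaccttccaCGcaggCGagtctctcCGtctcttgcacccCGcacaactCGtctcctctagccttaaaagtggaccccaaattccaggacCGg
Foxn1: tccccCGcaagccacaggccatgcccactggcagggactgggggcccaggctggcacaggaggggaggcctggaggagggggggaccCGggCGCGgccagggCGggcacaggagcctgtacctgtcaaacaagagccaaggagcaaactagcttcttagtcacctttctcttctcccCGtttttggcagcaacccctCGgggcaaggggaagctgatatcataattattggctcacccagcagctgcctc

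The Foxa1 stretch (chr12:57546112-57546361, minus strand) holds 21 CpGs, and 4 of 159 read counts were methylated, 2.52% (0.690% to 6.32%). That of Foxi3 (chr6:70956356-70956605, plus strand) holds 24 CpGs and was at 1.85% (0.604% to 4.27%). Its relative Foxi2 (chr7:135410117-135410366, plus strand) has only 3 CpGs there, at 24.1% (10.3% to 43.5%) over 29 read counts. Foxi1 (chr11:34208090-34208339, minus strand) has 4, at 61.3% (42.2% to 78.2%) over 31 read counts. The 15 CpGs of Foxr1 (chr9:44440869-44441118, minus strand) were at 26.5% (21.0% to 32.6%), and the 7 of Foxn1 (chr11:78386609-78386858, minus strand) had 48 of 60 read counts methylated (67.7% to 89.2%). The forkhead binding motif GTAAACA was searched on both strands in the 300 bases from 250 before to 50 after the start. It was present in 1 of 26 members' promoters, that of Foxa1, beginning 141 bases before the start, and in 2.95% of 16456 autosomal promoters.

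Most forkhead promoters were unmethylated. Promoters whose interval ended below 20% were called low. By this measure 34 of 39 members were low, compared with 64.7% of all 18358 measured autosomal promoters. That gap follows CpG content: among the 35 members with at least 40 CpGs in the window 34 were low, and among all such autosomal promoters 97.2% were low, so the share is near the background. The 5 exceptions were Foxr1, which has 50 CpGs, and Foxi1, Foxn1, Foxn3 and Foxs1, which have 12 to 32.

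**Figure D1:**
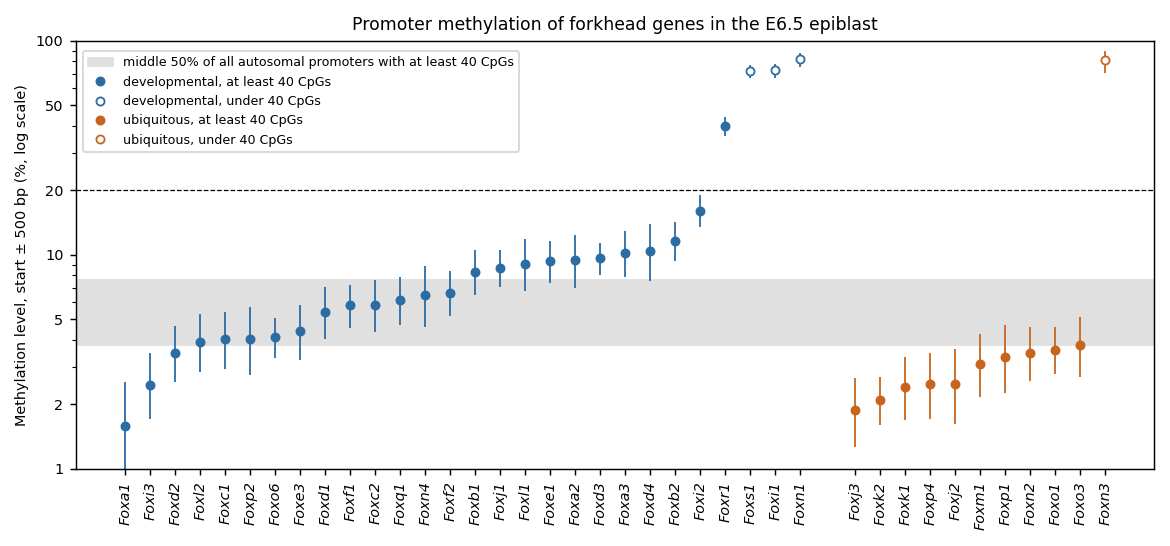
Methylation level of each promoter (percent, log scale) with its exact 95% interval, developmental members in blue and ubiquitous members in orange; open points have under 40 CpGs, the dashed line is at 20% and the grey band is the middle 50% of all autosomal promoters with at least 40 CpGs. All 10 filled orange points lie at or under 3.76%, 17 of the 25 filled blue points lie above 5.40%, the median of those autosomal promoters, and 5 points lie above the dashed line.

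Among promoters with at least 40 CpGs, the ubiquitous members had a lower median level than the developmental ones. Their 10 promoters with at least 40 CpGs ran from 1.87% to 3.76%, with a median of 2.78%, and none of them lay above the median of all autosomal promoters of that kind, 5.40%. Foxj3, a broadly expressed activator, was at 1.87% (1.27% to 2.66%; chromosome 4, 119539161 to 119540161), with 30 of 1602 read counts methylated. Foxk2, a regulator of metabolism and autophagy, was at 2.09% (1.60% to 2.68%; chromosome 11, 121259487 to 121260487) over 148 CpGs, the most of any member, and its relative Foxk1 was at 2.40%. Next came Foxp4 (2.47%) and Foxj2 (2.48%). The mitotic regulator Foxm1 was at 3.08% and Foxp1, which acts in lymphocytes, heart and brain, at 3.32%. Foxn2 stood at 3.46%, and the insulin-responsive factors Foxo1 and Foxo3 at 3.60% and 3.76%. The intervals of neighbours in this order overlap, so their order is not resolved by the counts.

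Developmental promoters spread over a wider range. Among the 25 with at least 40 CpGs the median was 6.47%, and 17 lay above 5.40%. Of the 25, 22 lay above the highest ubiquitous promoter with at least 40 CpGs. Foxa1, a pioneer factor of endoderm, was the lowest of all members at 1.59% (0.928% to 2.53%; chromosome 12, 57545611 to 57546611). This rank depends on the start used, which lies inside the annotated gene: the window at the gene's upstream end (position 57548029), with 17 CpGs, was at 11.9% (7.22% to 18.2%). Foxi3, a factor of ectodermal placodes, was at 2.47%. Foxd2, active in paraxial mesoderm, was at 3.48%. These 3 were the developmental promoters below 3.76%.

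CpG number moved with this difference, with a median of 77.0 CpGs in developmental windows and 108.5 in ubiquitous ones, both among windows of at least 40. Across the 35 members with such windows the Spearman correlation of level and CpG number was -0.75, a description across genes that are not independent. In the class with at least 100 CpGs, the 6 developmental members ran from 3.48% to 6.65% and the 7 ubiquitous ones from 1.87% to 3.60%, around a median of 3.27% for 1637 autosomal promoters. All 6 developmental and 2 of the 7 ubiquitous members were above that median. In the class from 40 to 59 CpGs, which held 8 developmental and 0 ubiquitous members, the developmental median was 10.3% and that of all 3588 promoters was 7.73%. From 60 to 79 CpGs the values were 5.84% for 7 developmental members and 5.66% for 3588 promoters. From 80 to 99 CpGs they were 4.30% for 4 developmental members, 2 of them above the median of all genes, 3.32% for 3 ubiquitous members and 4.36% for 2258 promoters.

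By subfamily, Foxa2 (9.41%) and Foxa3, a liver factor (10.2%), were both higher than Foxa1. Their intervals begin at 6.97% and 7.89%, above the upper bound of Foxa1 at the start used. At the upstream end of the Foxa1 gene the interval, 7.22% to 18.2%, overlaps both. Both Foxb genes, which act in the developing nervous system, were close to 10% (Foxb1 8.33%, Foxb2 11.6%). The Foxc genes, needed in somites and vessels, were at 4.03% (Foxc1) and 5.84% (Foxc2). Strands gave 11.3% and 4.05% for Foxb1, 6.33% and 1.56% for Foxc1, and 3.43% and 9.17% for Foxc2, so the order of Foxb1 and Foxc2 turns with the strand. In the Foxd subfamily Foxd2 (3.48%) and the kidney stroma gene Foxd1 (5.41%) were below the epiblast and neural crest gene Foxd3 (9.63%; 8.08% to 11.4%) and below Foxd4 (10.4%; 7.52% to 14.0%). The thyroid gene Foxe1 was at 9.31% and the lens gene Foxe3 at 4.40%. Foxf1 and Foxf2, genes of visceral mesoderm, were at 5.80% and 6.65%, although for Foxf2 the strands gave 3.76% and 11.9%. Foxl1, a gene of gut mesenchyme, was at 9.07% and the ovary gene Foxl2 at 3.90%. The cilia gene Foxj1 (8.70%), the retinal gene Foxn4 (6.47%), the brain genes Foxo6 (4.11%) and Foxp2 (4.03%) and the hair gene Foxq1 (6.14%) complete the low members except Foxi2.

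Levels from plus and minus strand reads differed by a median of 1.55 points over the 39 promoters, and in 32 of 39 by under 5 points. The widest gap was 13.4 points. This spread is wider than the counting intervals of some members, so differences of a few points between single promoters are not resolved.

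The 5 promoters that were not low split by CpG content. Foxn1, the gene of the thymic epithelium and hair that is mutated in nude mice, was the highest at 81.9% (75.0% to 87.5%; chromosome 11, 78386108 to 78387108), with 131 of 160 read counts methylated at 16 CpGs. Foxi1, a gene of ionocytes of the inner ear and kidney, was at 72.8% (67.0% to 78.1%; chromosome 11, 34207589 to 34208589), over 25 CpGs and 265 read counts. Foxs1, known from pericytes and sensory neurons, was at 72.2% (67.2% to 76.8%; chromosome 2, 152932708 to 152933708), over 32 CpGs and 356 read counts. Strands gave 72.8% and 71.7% for Foxs1 and 71.7% and 74.0% for Foxi1, and the other end of Foxs1 was at 70.4%. These 3 are high across the whole window, not at a single flank: before and after the start the levels were 61.7% and 76.7% for Foxs1, 59.4% and 74.7% for Foxi1, and 79.0% and 84.8% for Foxn1.

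Foxn3, the only ubiquitous member that was not low, was at 81.4% (70.3% to 89.7%; chromosome 12, 99449574 to 99450574), over only 12 CpGs and 70 read counts. This value depends on the start used. The start used lies inside the annotated gene, which is on the minus strand. At the upstream end of the annotated gene a window of 67 CpGs was at 3.83% (2.52% to 5.56%; chromosome 12, 99563167 to 99564167). A further stretch of 2500 bp within the gene (chromosome 12, 99391581 to 99394080) held 184 CpGs at 3.71%.

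Foxr1 was the only CpG-rich member that was not low, at 39.9% (35.9% to 44.0%; chromosome 9, 44440368 to 44441368), with 232 of 581 read counts methylated. The strands gave 33.1% and 46.5%. Its window was divided at the start: the 500 bp before it were at 27.3% (22.8% to 32.1%) and the 500 bp after it at 62.1% (55.2% to 68.7%), and the intervals do not overlap. The gene outside the window was at 76.2%.

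The 3 Foxi genes lay far apart. Foxi3 was at 2.47% (1.71% to 3.45%; chromosome 6, 70956106 to 70957106) over 94 CpGs. Foxi2, an early gene of head ectoderm, was at 16.1% (13.5% to 19.0%; chromosome 7, 135409867 to 135410867) over 50 CpGs, just inside the limit for a low promoter. Of those 50, 46 lie after the start, where the level was 15.4% (12.7% to 18.3%). Foxi1 was at 72.8% over 25. The 3 intervals do not overlap, and the level rose as the number of CpGs in the window fell.

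The low stretch around the start reached farther in developmental members than around most genes. A low region is the run of 200 bp bins around the start with a level under 20%, allowing 1 isolated higher bin, and bins needed 10 read counts. Its median length was 3000 bp over the 28 developmental members and 2200 bp over the 11 ubiquitous ones, and 1400 bp over 11071 autosomal promoters with at least 40 CpGs, whose upper quartile was 2000 bp. Longer than 2000 bp were 17 of the 28 developmental and 7 of the 11 ubiquitous members. Length also moved with CpG number. With at least 100 CpGs, medians were 3700 bp for 6 developmental members, 2200 bp for 7 ubiquitous ones and 2000 bp for 1637 promoters. From 80 to 99 CpGs they were 4600 bp for 4 developmental members, 4600 bp for 3 ubiquitous ones and 1600 bp for 2258 promoters. From 60 to 79 CpGs they were 3400 bp for developmental members and 1400 bp for all promoters, and from 40 to 59 CpGs 2900 and 1200 bp. Lengths are cut short where CpGs are too sparse to measure a bin.

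**Figure D2:**
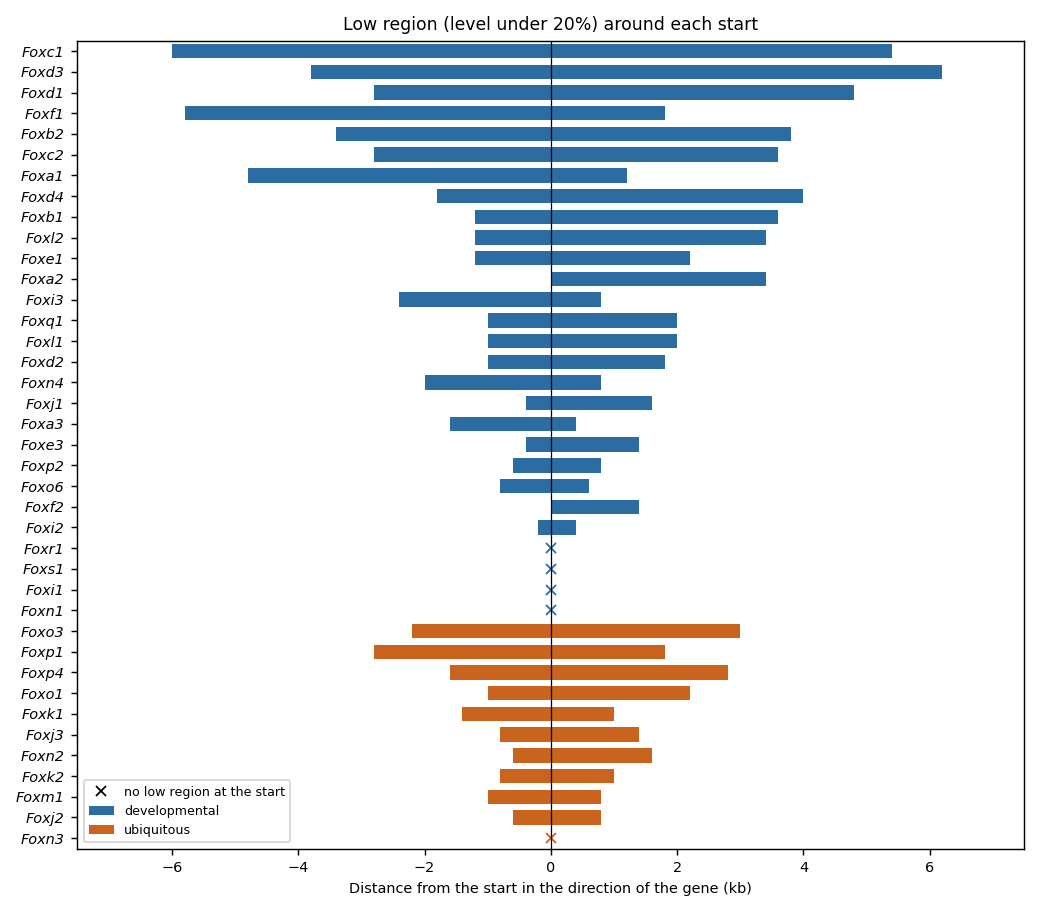
Extent of the low region around each start (kb from the start, in the direction of the gene), developmental members in blue and ubiquitous members in orange, with a cross where no bin near the start was low. The bars of Foxc1 and Foxd3 span 11400 and 10000 bp, and among ubiquitous members the Foxo3 bar is longest at 5200 bp.

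At least 5 kb long were 9 of 39 members, 8 developmental ones and Foxo3, compared with 1.1% of all measured autosomal promoters and 1.57% of those with at least 40 CpGs. Among genes under 6 kb, 7 of 21 members reached 5 kb. So did 71 of 1648 autosomal genes of that span with at least 40 CpGs in the promoter. Foxc1 had the longest, 11400 bp (chromosome 13, 31800646 to 31812045), with 600 CpGs at 7.68%. Foxd3 had 10000 bp (chromosome 4, 99652499 to 99662498), with 511 CpGs at 7.81%. Foxd1 (chromosome 13, 98351445 to 98359044; 378 CpGs at 5.08%) and Foxf1 (chromosome 8, 121078586 to 121086185; 411 CpGs at 7.97%) had 7600 bp each. The Foxf1 region shares 3875 bp with the low region of the neighbouring noncoding gene Fendrr and holds its start. Foxb2 had 7200 bp (chromosome 19, 16870031 to 16877230), with 350 CpGs at 9.42%. Foxc2 (6400 bp), Foxa1 (6000 bp) and Foxd4 (5800 bp) followed. For Foxb2, Foxc1, Foxc2, Foxd1, Foxd3, Foxd4 and Foxf1 the low region was longer than the whole gene, which spans 1515 to 3990 bp.

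The count of long regions depended on how a run was ended. It was 14 when bins up to 30% counted as low, with 3.03% of autosomal promoters then reaching 5 kb, 2 with a limit of 15%, and 3 when no higher bin was bridged. Foxo3 reached 5 kb in each of these, whereas Foxc1 measured 3600 bp with a limit of 15% and 4200 bp with no bridging. The reads of a single strand also moved lengths. Foxc1 measured 11400 bp from plus and 3600 bp from minus strand reads, Foxf1 6800 bp and 3000 bp, and Foxd3 6800 bp and 12000 bp. Foxd1 measured 4600 bp from either strand. Foxa1, Foxb2, Foxc2, Foxd3, Foxd4 and Foxo3 reached 5 kb on each strand. So did Foxp2, at 5200 bp from plus and 5400 bp from minus strand reads, although its region from both strands together was 1400 bp.

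The shortest low region that was present was that of Foxi2, 600 bp (chromosome 7, 135410167 to 135410766). Foxf2 (chromosome 13, 31625816 to 31627215), Foxo6, Foxp2 and Foxj2 had 1400 bp each. The 500 bp before the Foxf2 start were at 22.5%, and with a limit of 30% its region was 6000 bp. Foxp2 went from 1400 to 4600 bp with that limit. No low region was found at the start used for Foxi1, Foxn1, Foxn3, Foxr1 and Foxs1.

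**Figure D3:**
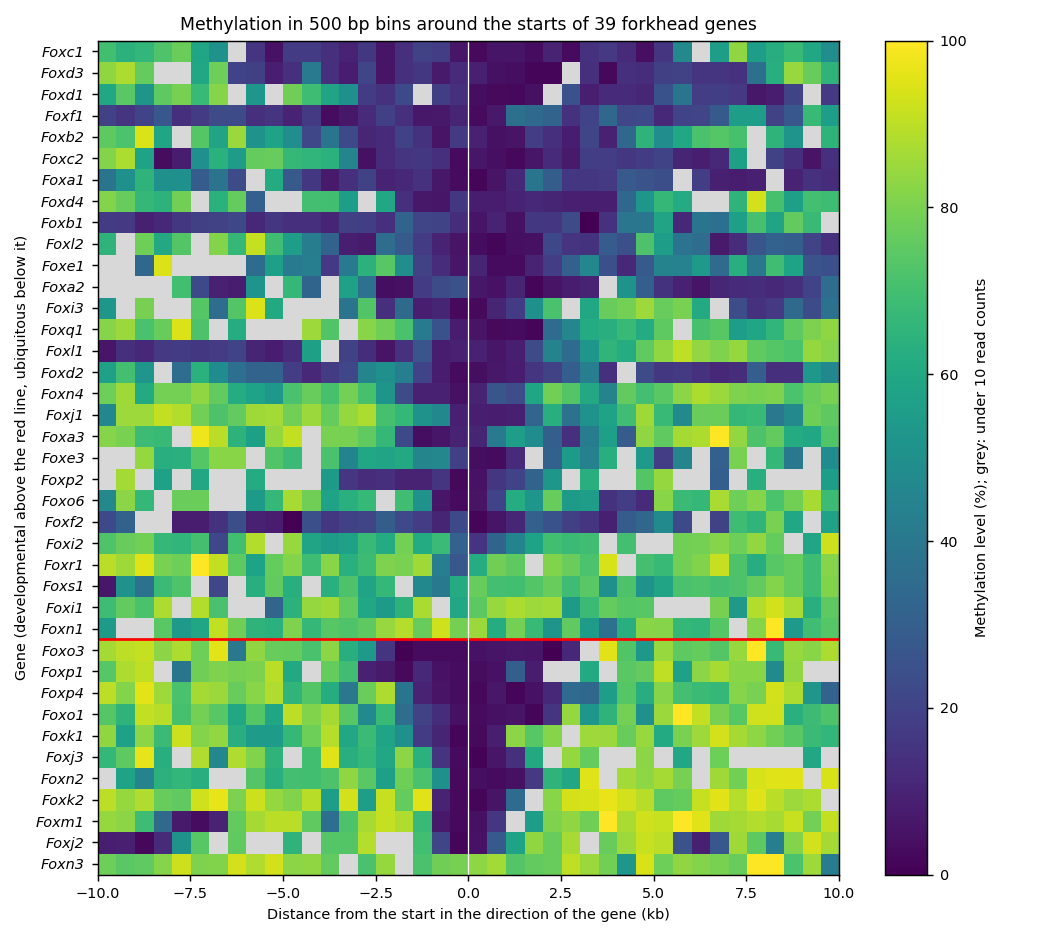
Methylation level (colour, percent) in 500 bp bins from 10 kb before to 10 kb after the start of each of the 39 members, in order of low-region length within the developmental class (above the red line) and the ubiquitous class; grey bins had under 10 read counts. Dark stretches extend several kb to both sides of Foxc1, Foxd3 and Foxf1, whereas in most ubiquitous rows the dark stretch at the start is short and has bright bins on both sides.

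Median profiles around the start differed between the classes. They are medians over genes with low regions of unlike length, so they do not give the shape of any single gene's edge. In developmental members with at least 40 CpGs the median level stayed at or under 24.3% in each 500 bp bin from 2500 bp before the start to 2000 bp after it, and was 55.6% at 5000 to 4500 bp before the start. In the ubiquitous members it went from 10.2% at 1000 to 500 bp before the start to 41.6% in the next bin out and 67.4% at 3000 to 2500 bp before the start. Past the start it rose from 16.7% at 1500 to 2000 bp to 71.0% in the next bin. The median over all autosomal promoters with at least 40 CpGs had already reached 52.2% at 1000 to 1500 bp past the start. In the same 20 kb around the start, a median of 36.8% of measured 500 bp bins were under 20% in developmental members, 19.0% in ubiquitous members and 11.1% in all autosomal promoters of this kind.

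**Figure D4:**
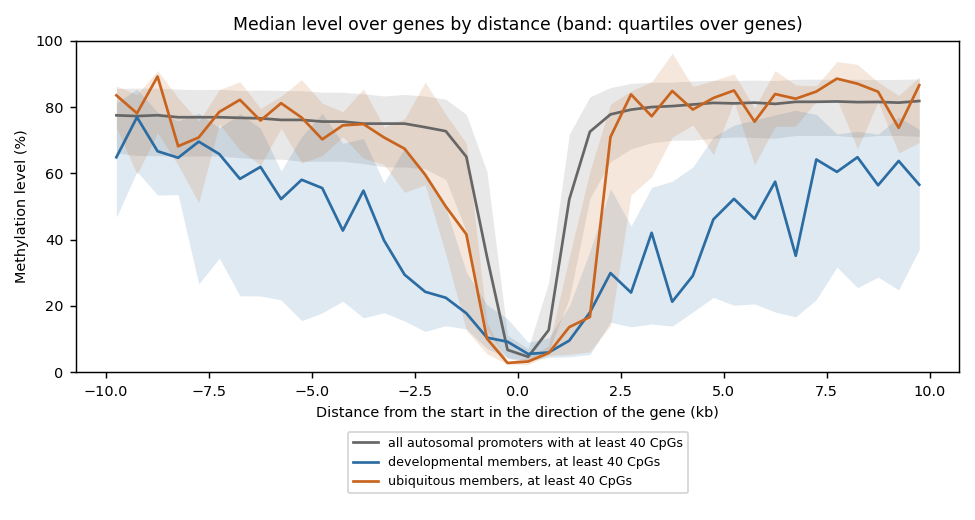
Median methylation level (percent) by distance from the start (kb) over the 25 developmental and 10 ubiquitous members and all 11071 autosomal genes with at least 40 CpGs in the promoter, with bands from the lower to the upper quartile over genes. The blue line climbs gradually on both sides of the start, and the orange line follows the steep sides of the grey one at a greater width.

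Measured at fixed distance, DNA before the promoter was also low in many developmental members. The 2 kb before the window were low, with intervals ending below 20%, in 16 of 39 members (13 developmental and 3 ubiquitous), compared with 9.79% of autosomal genes with at least 40 CpGs in the promoter. The median was 16.3% in the 25 developmental and 30.5% in the 10 ubiquitous members of that kind, and 56.7% in all such genes. Foxo3 (3.10%) and Foxp1 (5.13%) were the lowest, and Foxa3 (8.31%), Foxa2 (8.37%) and Foxf1 (8.40%) came next. The stretch before Foxf1 holds the start of the noncoding gene Fendrr, whose own promoter was at 6.77%. Foxe3 (52.4%), Foxk2 (55.9%), Foxj1 (60.1%), Foxi2 (69.3%) and Foxn2 (68.7%) had low promoters with DNA above 50% before them.

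The first 2 kb past the window were low in 25 of 39 members, 19 developmental and 6 ubiquitous, compared with 21.9% of those autosomal genes. The median was 11.2% over all members, 9.49% over the developmental and 14.0% over the ubiquitous ones. Over this fixed distance the classes overlap widely. Foxo1 (4.53%), Foxn2 (4.69%), Foxo3 (5.98%) and Foxp4 (6.30%) were as low as Foxe1 (4.63%) and Foxa2 (5.87%), whereas Foxj2 was at 62.0%.

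Whole gene bodies divided the family. The body is the annotated gene outside the promoter window. In short genes it shares much of its DNA with the low region and with the first 2 kb past the window. These measures are therefore not separate results there: in Foxd1 both the body and those 2 kb held 2847 read counts at 2.77%. The median body level was 11.6% in the developmental and 71.7% in the ubiquitous members. It was 74.0% in 11006 autosomal genes with at least 40 CpGs in the promoter. With 2000 bp on either side of the start left out, the medians were 31.9% and 81.0%. The ubiquitous bodies ran from 58.1% (Foxp4) to 84.5% (Foxk2), and 17 of the 28 developmental bodies were low. Of the autosomal genes 4.21% had a low body. Span moves with class: the 21 members under 6 kb are all developmental, and all ubiquitous members are longer, so class and gene span cannot be told apart for most of the family.

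**Figure D5:**
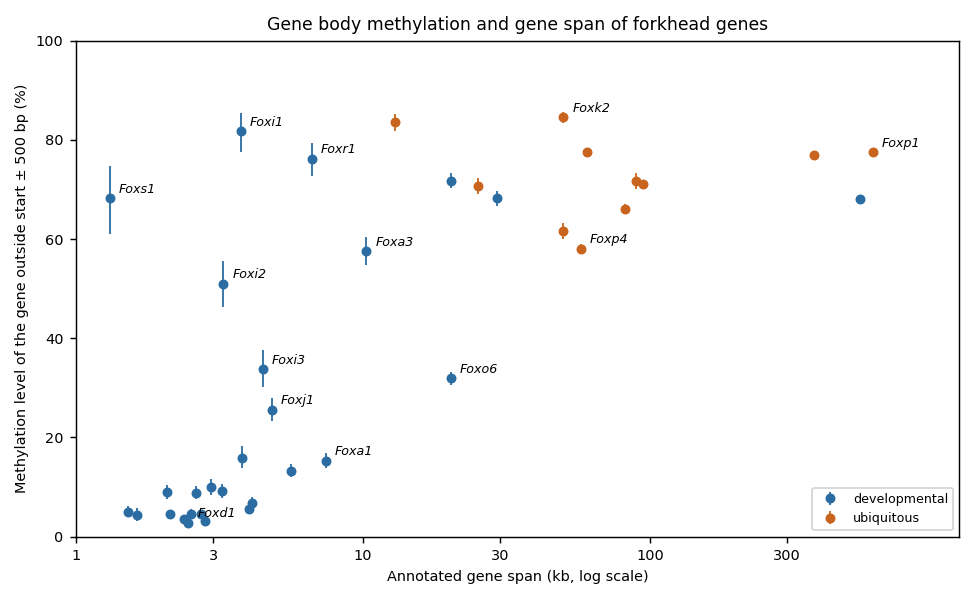
Methylation level of the gene outside the promoter window (percent, with exact 95% interval) against annotated gene span (kb, log scale) for each member, developmental in blue and ubiquitous in orange. Short genes cluster at the bottom left, with Foxi1 and Foxs1 far above them, and every ubiquitous gene lies at 58.1% or higher.

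Among members under 6 kb whose promoter has at least 40 CpGs, 16 of 19 had a low body, compared with 23.5% of 1585 autosomal genes of that span and promoter type. Foxd1 had the lowest body at 2.77% (2.20% to 3.45%), over 2847 read counts, followed by Foxq1 at 3.18% and Foxd3 at 3.63%. Both Foxe genes (Foxe3 4.29%, Foxe1 4.54%), Foxc2 (4.45%), Foxl2 (4.59%), Foxb2 (4.97%) and Foxc1 (5.50%) were at a similar level. In some of these genes the body was less methylated than the promoter. In Foxd3 the body interval (2.95% to 4.41%) lies under that of the promoter (8.08% to 11.4%), as in Foxb2, where the body was at 4.97% and the promoter at 11.6%. The 3 short CpG-rich exceptions were Foxj1 (25.6%), Foxi3 (33.8%) and Foxi2 (51.0%). Both CpG-poor short genes had methylated bodies, Foxi1 at 81.8% (77.6% to 85.5%) and Foxs1 at 68.3%.

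The 7 longer developmental members had bodies from 15.3% to 76.2%. Foxa1 was the lowest at 15.3% (13.9% to 16.8%) and the only one called low, in a size class where 0.966% of autosomal genes with at least 40 CpGs in the promoter had a low body. The brain gene Foxo6 was at 31.9% (30.6% to 33.2%) and held 2 low stretches besides that at its start. Near its far end, 1500 bp (chromosome 4, 120267578 to 120269077) held 161 CpGs at 6.65%, and nearer the start 1000 bp (chromosome 4, 120282578 to 120283577) held 55 CpGs at 13.5%. Foxa3 (57.6%), Foxp2 (68.1%), Foxn1 (68.2%), Foxn4 (71.7%) and Foxr1 (76.2%) lay in or near the ubiquitous range. The highest bodies of the family were those of Foxk2 at 84.5% (83.5% to 85.6%), Foxm1 at 83.6% (81.8% to 85.3%) and Foxi1.

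Some members have more than 1 low start. Foxa2 has 3 annotated starts, at 9.41%, 7.62% and 7.30% from the most upstream inward, all low. All 3 lie in the same low region of 3400 bp, and the windows of the inner starts overlap, so these levels are not separate measurements. Foxp1 has 3 over a span of 597405 bp: the most upstream was at 3.32%, the innermost (chromosome 6, position 99028298) at 3.64% (2.45% to 5.19%) over 92 CpGs, and the one between them at 30.2% (22.7% to 38.6%) over 13 CpGs. The interval of the middle start overlaps neither of the others.

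Clustered members were compared through the DNA between them. On chromosome 8 the order is Fendrr, a noncoding gene transcribed away from Foxf1, then Foxf1, Foxc2 and Foxl1, over 75763 bp. The 1275 bp between Fendrr and Foxf1 were at 8.28%, and their low regions share 3875 bp. The 8789 bp between Foxc2 and Foxl1 were at 14.5%, whereas the 28016 bp between Foxf1 and Foxc2 were at 48.3%. Over the whole stretch 54 of 148 measured 500 bp bins were under 20%. On chromosome 13, Foxq1, Foxf2 and Foxc1 lie farther apart, and the DNA between them was at 46.7% over 64839 bp and 63.2% over 175239 bp. Over that whole stretch of 252466 bp, 41 of 425 measured 500 bp bins were under 20%. The share in comparable DNA elsewhere was not computed, so neither count of bins has a background beside it. The 15544 bp between Foxd2 and Foxe3 on chromosome 4 were at 21.4%. At Foxl2, the low region of 4600 bp lies wholly within that of Foxl2os, a noncoding gene whose start is on the other strand.

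Promoters of other developmental families had similar median levels where the window held at least 40 CpGs. Over the whole lists, low promoters numbered 11 of 14 in Sox, 9 of 15 in T-box and 7 of 8 measured in Pax genes. They numbered 24 of 28 in developmental forkhead genes, beside 64.7% of all measured autosomal promoters. Among autosomal promoters with at least 40 CpGs, 97.2% were low and the median was 5.40%. With at least 40 CpGs in the window, the median promoter level was 6.47% in 11 Sox genes (with the X-linked Sox3), 7.65% in 9 T-box genes and 8.67% in 7 Pax genes, beside 6.47% in the 25 developmental forkhead genes. Low regions had medians of 3800 bp, 2400 bp and 2600 bp, beside 3200 bp for those forkhead genes, and reached 5 kb in 3 of 11, 2 of 9 and 2 of 7, beside 8 of 25. Bodies had medians of 9.92%, 31.2% and 39.4%, beside 9.11%. The Pax genes were the longest of these lists, with a median span of 91669 bp, compared with 3256 bp for those forkhead genes and 4037 bp for the Sox genes. None of these differences was tested, since the table has no replicates and genes are not replicates of a condition.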

How the data were processed

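The authors deposited counts of methylated and unmethylated reads for each strand of 21908008 CpGs, in 1 table taken as the pool of both samples. Per the submitters' processing notes, which state neither roles nor sequence, Bowtie2 2.1.0, Bismark 0.12.5, cutadapt 1.3 and the build mm10 were used. For the combining of samples, duplicate removal and filters, the step is not given in the sources used here. Duplicate reads would narrow the intervals without adding information.

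Strands were summed and nothing was normalized (Python 3.11.15, scipy 1.17.1). A region was measured with at least 5 CpGs with a read and 20 read counts. Starts came from the promoter table, where the most upstream entry was used, else from the CpG-richer gene end, which can be the wrong end. In low regions up to 5 bins in a row under 10 read counts were bridged. The steps were tested on simulated data with sharp-edged low regions, which cannot test lengths where levels rise gradually. Members, classes and lists were chosen with earlier results of these data known, and the split of genes at 6 kb and the classes of CpG number after values were seen. All members are named. Full values follow a rule: every promoter that is not low, the lowest promoters, the longest and shortest low regions, and the extreme bodies. The background is all autosomal protein-coding genes with a measured promoter. Alternatives were strands, depth limits, averages of CpG fractions, windows, thresholds, bin sizes and starts.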

Additional observations from a re-analysis of the deposited data

How the results depend on the processing

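No paired analysis was possible because the table pools both samples of a single group, and for the same reason no sample could be left out. Over all 28 developmental and 11 ubiquitous members, whatever their CpG number, the median promoter levels were 7.49% and 3.08%. Over the alternatives run, these medians ranged from 6.30% to 8.89% in developmental and from 2.45% to 3.97% in ubiquitous members. The median low-region length, 3000 bp in developmental members, was 2400 bp with a limit of 15% and 4500 bp with 30%, and in ubiquitous members it ranged from 2000 to 2700 bp. The median of the first 2 kb past the window ranged from 9.41% to 13.8% over all members and from 10.4% to 17.7% over ubiquitous ones. The median developmental body was 13.5% and the ubiquitous one 76.9% as a mean of CpG fractions, and 31.9% and 81.0% outside 2000 bp on either side of the start, where short genes have little left. From minus strand reads the ubiquitous body median was 74.4%. The developmental median of the first 2 kb past the window was 11.7% as a mean of CpG fractions. The median ubiquitous body stayed above the median developmental body in each. The count of low regions of at least 5 kb, 9, was 14 with a limit of 30%, 2 with 15% and 3 with no higher bin bridged; the cause was not tested. Low promoters numbered 22 among the 26 members with an annotated start, an alternative chosen after seeing the data, because fewer members enter. Over single members and alternatives, promoter levels stayed within their intervals 324 times and left them 53 times, and low-region lengths moved by over 1.5 times in 43 instances and not in 412. With the upper bound required to be under 10%, 24 promoters were low. Levels over 12 to 25 CpGs, at Foxn3, Foxn1 and Foxi1, rest on 70 to 265 read counts.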

Other observations

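Forkhead genes outside the 39 members gave the following values. Foxh1, the partner of Smad proteins in Nodal signalling, was at 11.1% (8.85% to 13.7%), with a low region of 4200 bp and a body at 18.2%. Its window was placed by the CpG-richer end.

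The X-linked members of the family were Foxo4, Foxp3 and Foxr2. Foxo4, the X-linked relative of Foxo1 and Foxo3, was at 10.2% (7.63% to 13.2%), and the strands gave 6.29% and 12.4%. The autosomal Foxo genes ran from 3.60% to 4.11%, and the interval of Foxo4 overlaps none of theirs. Foxo4 has 52 CpGs in the window, fewer than Foxo3 with 95, and X-linked promoters were not used as background here. Foxp3, the gene of regulatory T cells, was at 79.0% (68.5% to 87.3%) over 12 CpGs. Foxr2 was at 18.0% (10.6% to 27.5%) over 8 CpGs and 89 read counts, an interval that spans the limit for a low promoter.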
